A study of Arabidopsis thaliana with 12 samples.

Results

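AT4G17070 is a protein-coding gene of Arabidopsis thaliana on chromosome 4 that is described in general annotation as a peptidyl-prolyl isomerase type. It was read by 1 of the 3439 probes on the array, the only probe whose annotation names it, and that probe names no other gene. It is therefore 1 of 692 probes with exactly 1 gene, while 870 had several and 1877 had none. The gene was chosen by its intensity and its difference between the groups in these same 12 arrays, so this difference is described here and not tested.

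The samples were total RNA of wild-type plants, ecotype Columbia-0, the common laboratory strain. The 6 control samples came from plants kept at normal iron and the 6 high iron samples from plants exposed to an iron excess, which the labels describe as an oxidative stress. All plants shared the wild-type genotype, and no transgene or mutant allele is labelled. The sources used here name no tissue, age, iron dose or duration and do not say whether samples came from separate plants. Each error given therefore describes these samples and not a known spread between plants.

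Peptidyl-prolyl isomerases turn the peptide bond before a proline between its cis and trans forms, a slow step in the folding of many proteins. Plants hold several families of them, the cyclophilins, the FK506-binding proteins and the parvulins, and many members work in the chloroplast, some in the thylakoid lumen where photosystem subunits are assembled. Free iron in excess reacts with peroxide to give hydroxyl radicals that damage proteins and membranes. Whether AT4G17070 acts as an isomerase was not measured here.

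Each array gave 1 deposited intensity per probe, from 0 to an upper limit of 100, in units that the sources do not name. In control samples 1 to 6 the AT4G17070 intensity was 15.2, 13.0, 12.6, 12.1, 8.96 and 7.48. In high iron samples 1 to 6 it was 51.1, 43.5, 48.4, 47.8, 35.0 and 33.2. Every high iron value lay above every control value, the lowest of them 2.18 times the highest control value. No value was at 0 or at the upper limit, so all 12 are measured and not bounds. The mean intensity was 11.6 ± 2.83 in control and 43.2 ± 7.47 in high iron samples (SD, n = 6 each), a coefficient of variation of 24.5% and 17.3%. Groups separated in this direction at 4.89% of all probes in the deposited values, and a gap at least as wide was found at 2 probes in all, AT4G17070 included (0.0582%).

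**Figure D1:**
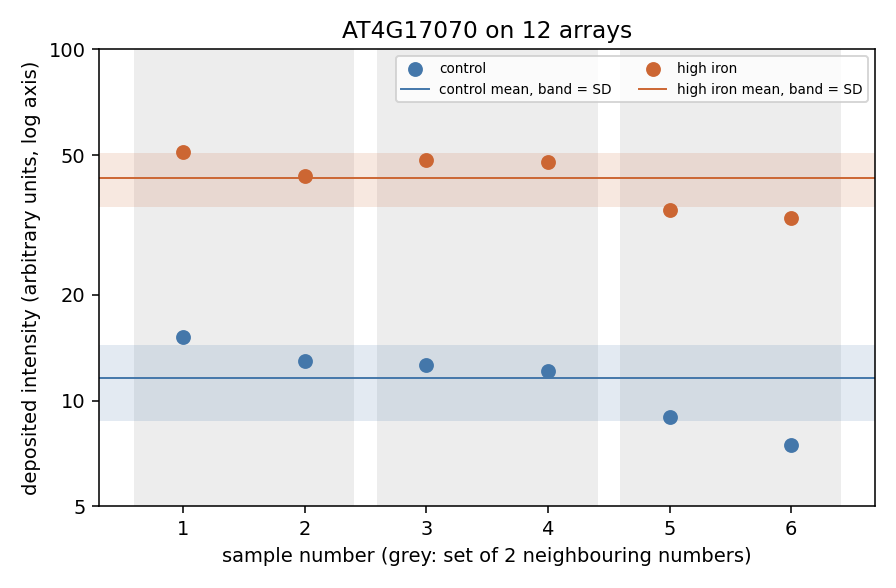
Deposited AT4G17070 intensity (arbitrary units, log axis) against sample number for control and high iron samples, with the group mean as a line and the SD as a band. The 6 high iron points lie between 33.2 and 51.1 and the 6 control points between 7.48 and 15.2, and in both groups samples 5 and 6 are the lowest.

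As a share of the summed intensity of all probes, the AT4G17070 signal was 0.329% ± 0.0770 in control and 1.25% ± 0.239 in high iron samples (SD, n = 6). This is a share of signal and not of RNA molecules, because probes differ in how strongly they bind their transcripts. In such whole samples a larger share of cells that express the gene and more of its RNA per cell cannot be told apart.

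The place of a probe inside its own array needs no scaling between arrays. In control samples 1 to 6, 21, 21, 22, 21, 29 and 33 probes were brighter than the AT4G17070 probe. In high iron samples 1 to 6 this number was 8, 9, 10, 9, 12 and 12. The counts of the groups did not overlap, with medians of 21.5 in control and 9.50 in high iron samples (n = 6 each). After quantile normalization, which keeps only the rank of a probe inside its array, groups separated in this direction at 9.77% of all probes. Apart from ties and the lowest values, that is the same separation as this one and not a further result. The AT4G17070 probe was thus brighter than 99.0 to 99.4 percent of the other probes in control samples and than 99.7 to 99.8 percent in high iron samples. Among the 692 probes with 1 gene it stood at place 5 or 6 from the top in control and at place 2, 3 or 4 in high iron samples.

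**Figure D2:**
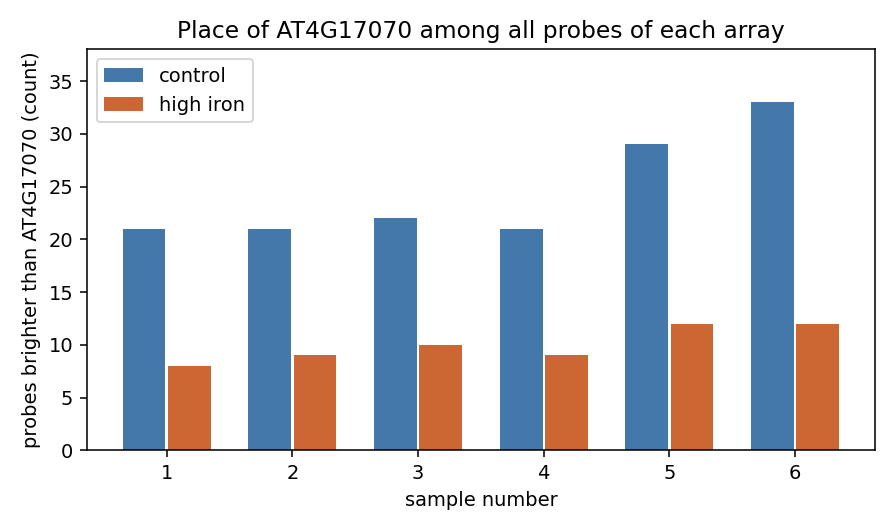
Number of probes brighter than the AT4G17070 probe on each array (count, from 0), by sample number, for control and high iron samples. The bars run from 21 to 33 in control and from 8 to 12 in high iron samples, and the tallest bar of each group belongs to samples 5 and 6.

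In all 6 control samples the same 19 probes were brighter than the AT4G17070 probe. Of these, 7 were dimmer than it in all 6 high iron samples, 7 were still brighter in all 6, and 5 differed between high iron samples. The opposite case, dimmer than AT4G17070 in all control and brighter in all high iron samples, was found at 0 probes. That count is fixed in advance, since such a probe would need a larger deposited difference and none had one. Against the median of the 12 of these 19 that stayed below the upper limit, AT4G17070 stood at a ratio of 0.373 to 0.584 in control and of 1.08 to 1.55 in high iron samples. The log2 ratio was -0.99 ± 0.25 in control and 0.36 ± 0.19 in high iron samples (SD, n = 6), so AT4G17070 was higher relative to these bright probes by 1.35 on the log2 scale (SE 0.13). Because these probes were picked as brighter in control samples, a control ratio under 1 is fixed by the choice.

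Of those 19 probes, 4 had 1 gene, and they are named here after their values were seen. PSBW (AT2G30570), a small subunit of photosystem II, was the 1 of the 4 that AT4G17070 passed in all 6 high iron samples, with a mean deposited intensity of 21.0 in control and 37.0 in high iron samples. AT4G31530 had means of 18.2 and 43.9 and AT2G27290 of 19.8 and 33.1. AT3G09850 had means of 93.5 and 62.0 and was the 1 of the 4 with a lower mean at high iron, but it lay at the upper limit on 2 arrays, so its level is in part a lower bound.

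**Figure D3:**
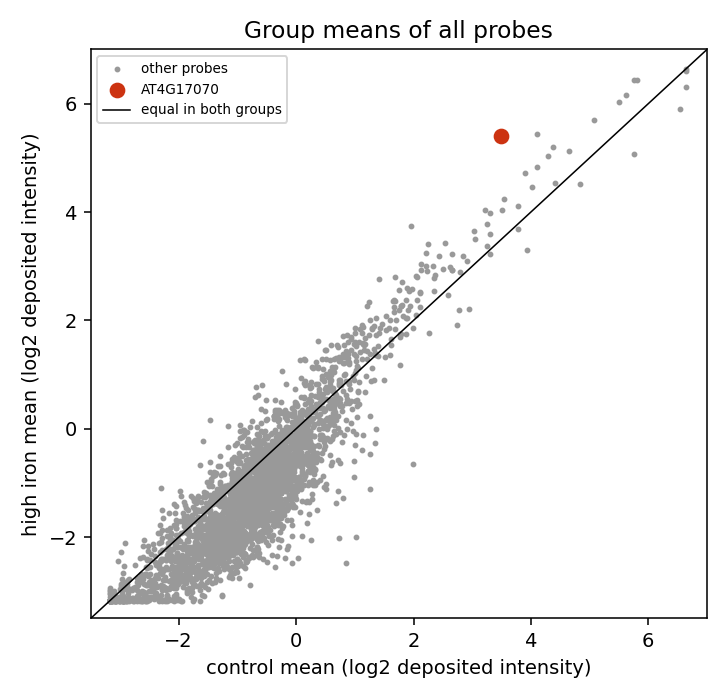
Mean log2 deposited intensity of each of the 3439 probes in high iron samples (vertical) against control samples (horizontal), with AT4G17070 as a large point and a line of equal values. AT4G17070 lies at 3.49 in control and 5.41 in high iron samples, the farthest above the line of all probes on this scale.

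The size of the AT4G17070 change depended on how the arrays were brought to one scale, since the arrays of the groups had unequal spreads. Column medians lay between 0.555 and 0.618 in control and between 0.352 and 0.446 in high iron samples, whereas column means lay between 0.978 and 1.04 in both. With quantile normalization, which gives every array the same set of values, AT4G17070 stood at 3.71 ± 0.31 in control and 5.19 ± 0.24 in high iron samples on the log2 scale (SD, n = 6). The difference was 1.48 (SE 0.15), a ratio of 2.79. Only 6 of 3439 probes had a larger positive difference, and 1 of the probes with 1 gene. Groups separated in this direction at 9.77% of probes after quantile normalization. This scaling keeps only the rank of a probe inside its array: control samples 1, 2 and 4, where the probe stood at place 22 from the top, all received 3.93, although their deposited values differed.

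With the deposited values the AT4G17070 difference was 1.92 (SE 0.18, a ratio of 3.78). With each array divided by its median it was 2.44 (SE 0.21, a ratio of 5.44), by its mean 1.94 (SE 0.18) and by its 75th percentile 2.25 (SE 0.19). Under these 4 scalings no probe of the 3439 had a larger positive difference. A single factor per array moves all probes above the floor alike, so these 4 ranks are not separate results. With cyclic loess, which removes differences that depend on brightness, the value was 1.43 (SE 0.16) and 11 probes had a larger one. The sign was positive under all 6 scalings and the groups did not overlap under any of them. Groups separated in this direction at 16.7% of all probes with the array median, 9.77% after quantile normalization and 4.89% with deposited values. For the other scalings this share was not computed.

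**Figure D4:**
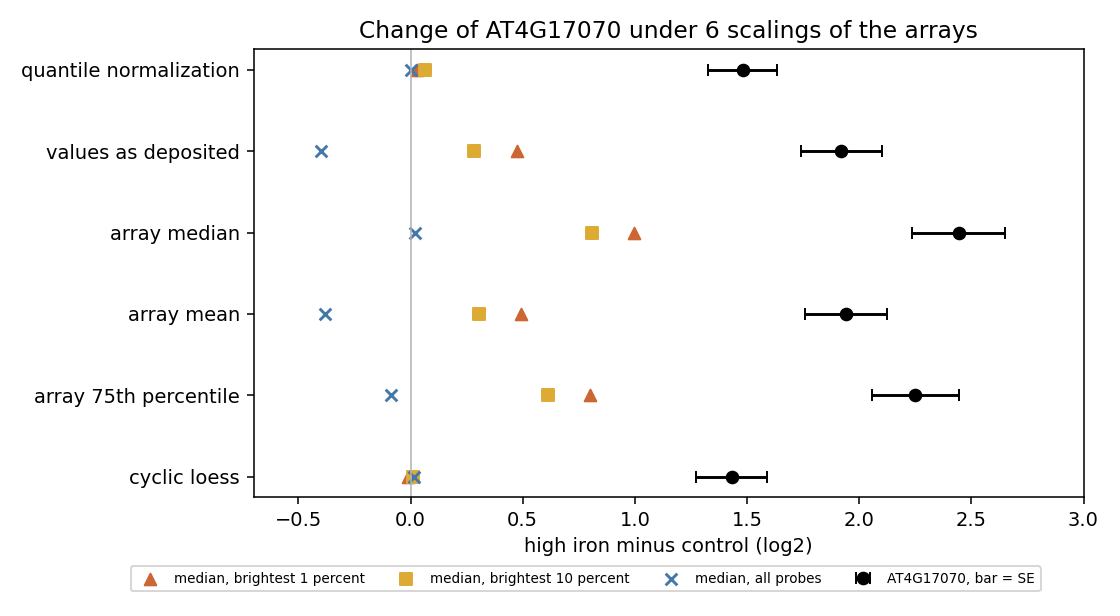
High iron minus control difference (log2) of AT4G17070 under 6 scalings of the arrays, with bars for the SE, beside the median difference of all probes, of the brightest 10 percent and of the brightest 1 percent. AT4G17070 runs from 1.43 to 2.44 and lies to the right of the 3 medians in every row.

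Bright probes as a group also moved with the scaling. The 35 probes of the brightest 1 percent had a median difference of 0.03 after quantile normalization, 0.47 with deposited values and 0.997 after median scaling. For the 344 probes of the brightest 10 percent these medians were 0.06, 0.28 and 0.81, and for all probes 0.00, -0.40 and 0.02. AT4G17070 exceeded the median of the brightest 10 percent by 1.42 with quantile normalization and by 1.64 with deposited values. The median, the mean and the 75th percentile gave the same 1.64 by construction, since 1 factor per array shifts all bright probes alike. Among the 35 brightest probes AT4G17070 had the largest difference under all 6 scalings, and AT4G31530 came next with deposited values at 1.33. Where no probe of the array had a larger difference, this first place follows from that. Of these 35 probes, AT4G17070 among them, 26 had a positive difference in deposited values, a larger share than the 26.1 percent of all probes. The part that this widening of the intensity range has in the AT4G17070 value was not tested.

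Within each group the samples fall into 3 sets of neighbouring numbers, 1 with 2, 3 with 4 and 5 with 6, whose deviations from the group mean go together over all probes. AT4G17070 followed these sets. In control samples the higher value of a set was 1.17, 1.04 and 1.20 times the lower one for the sets in this order, and in high iron samples 1.17, 1.01 and 1.05 times. Over the whole group the highest value was 2.03 times the lowest in control and 1.54 times in high iron samples. The set means of the deposited intensity were 14.1, 12.4 and 8.22 in control samples and 47.3, 48.1 and 34.1 in high iron samples. The set of samples 5 and 6 was thus the lowest in both groups. The order of the other sets differed between the groups in deposited values and after median scaling, but not after quantile normalization. There the set averages on the log2 scale were 3.93, 3.89 and 3.32 in control and 5.42, 5.25 and 4.91 in high iron samples.

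The ratio of high iron to control for samples of the same number was 3.36, 3.35, 3.83, 3.94, 3.90 and 4.43 for the numbers 1 to 6 in deposited values. These 6 ratios varied less than the levels: the log2 differences had an SD of 0.15, against a pooled SD of 0.33 for the log2 levels inside a group. After quantile normalization the ratios ran from 2.47 to 3.20 and after median scaling from 4.95 to 6.20. By set, the quantile normalized difference was 1.49, 1.36 and 1.59 on the log2 scale. Taken over 3 averages per group, where the difference is the same by construction, its SE was 0.23 in place of 0.15, since the samples of a set may not be independent. A fit blocked by replicate number gave an SE of 0.06 over 12 samples, and a fit of the averages blocked by set gave 0.09.

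Other genes of the isomerase families were followed through lists of 55 genes, 29 cyclophilins, 23 FK506-binding proteins and trigger-factor types, and 3 parvulins. Of these, 5 had a probe of their own. A further 5 probes name a list gene beside other genes and were left out. Among the 5 genes with a probe of their own, 3 were above the lowest level on some array. Over 12 samples after quantile normalization 1 of the 3 rose, 1 fell and 1 did not pass the test (limma, adjusted p under 0.05), and the median difference of the 3 was -0.50, against 0.00 over all probes. Over all probes 33.4% passed this test, 18.2% higher and 15.2% lower. Over the 6 set averages 0 of the 3 genes passed in limma, 2 of them with an unadjusted p under 0.05, where 2.38% of all probes passed.

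AT5G35100, a cyclophilin of the thylakoid lumen, was the one that fell. Its deposited intensity had a lowest, median and highest value of 0.860, 0.973 and 1.01 in control and of 0.157, 0.363 and 0.544 in high iron samples. Its groups did not overlap, in the direction opposite to AT4G17070, a separation that 27.0% of all probes showed in deposited values and 8.32% after quantile normalization. The quantile normalized difference was -1.05 (SE 0.20, adjusted p = 0.00204), with -0.82, -1.70 and -0.63 in the 3 sets. Over the set averages the limma adjusted p was 0.109, and 0.118 when these were also blocked by set. With deposited values the difference was -1.60. High iron samples 3 and 4, which hold 278 and 271 zeros against 123 to 145 on the other arrays, gave its lowest values, and without them the difference was -0.77 (adjusted p = 0.00221).

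AT5G55220, a trigger-factor type protein, stood near the lowest level of the arrays. Its deposited intensity ran from 0.0906 to 0.150 (median 0.128) in control and from 0.0755 to 0.186 (median 0.148) in high iron samples, so the groups overlapped. After quantile normalization 4 control values and 1 high iron value lay at the floor, and the gene rose by 0.76 (SE 0.22, adjusted p = 0.0182). The call ended with deposited values (0.20, adjusted p = 0.171), of which 55.0% of all probes passed, over the set averages (adjusted p = 0.168) and when the set entered as a random block (adjusted p = 0.170). It also ended when samples 3 and 4 were left out of both groups (0.51, adjusted p = 0.0604) and when samples 5 and 6 were (0.83, adjusted p = 0.0861).

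AT1G74070, another cyclophilin predicted for the thylakoid lumen, had deposited values from 0.959 to 1.22 (median 1.07) in control and from 0.195 to 1.09 (median 0.698) in high iron samples. The groups overlapped, and its difference was -0.50 (SE 0.28, adjusted p = 0.202) after quantile normalization and -0.91 (adjusted p = 0.0574) with deposited values. By set, after quantile normalization, it was -0.11, -1.43 and 0.05, and without high iron samples 3 and 4 it was -0.08. AT5G13410, an FK506-binding protein type, and AT5G19370, which joins a parvulin and a rhodanese domain, lay at the floor on all 12 arrays and have no measured difference. Whether any of these genes differs in its response from AT4G17070 was not tested.

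**Figure D5:**
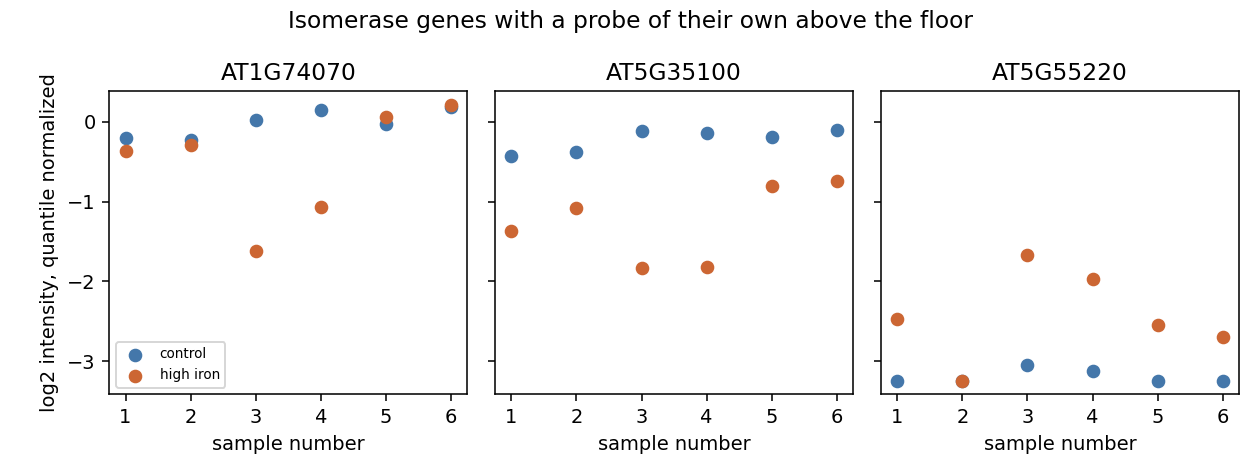
Quantile normalized log2 intensity by sample number of the 3 isomerase genes measured above the floor, for control and high iron samples. AT5G35100 is lower in all high iron samples, AT1G74070 is lowest in high iron samples 3 and 4, and AT5G55220 lies near the floor of -3.24 in control samples.

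The genes with the most similar pattern over the 12 samples were sought among 589 probes with 1 gene that were above the floor on all arrays. The 5 highest Pearson correlations with AT4G17070, over quantile normalized log2 values, were those of AT1G65090 (0.957), AT2G28660 (0.952), AT1G64510 (0.948), GLDH (0.945) and CML30 (0.945). AT2G28660 is annotated as a copper chaperone type, AT1G64510 codes for a plastid ribosomal protein, GLDH (AT3G47930) for the enzyme of the last step of ascorbate synthesis and CML30 (AT2G15680) for a calmodulin-like protein. Over 12 samples such a correlation mostly records the gap between the groups, and 22 of the 589 probes exceeded 0.9. Within the groups the values were 0.64 in control and 0.83 in high iron samples for AT1G65090, 0.15 and 0.84 for AT2G28660, and 0.75 and 0.19 for AT1G64510 (n = 6 each). For GLDH they were 0.70 and 0.68, and for CML30 0.72 and 0.87.

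These 5 genes were far dimmer probes and had smaller differences than AT4G17070. AT2G28660 had deposited values of 0.495 to 0.577 in control and 0.737 to 1.14 in high iron samples. These groups did not overlap, a separation that 4.89% of all probes showed in this direction. Its quantile normalized difference was 1.10 (SE 0.11). GLDH had deposited values of 0.229 to 0.389 in control and 0.360 to 0.486 in high iron samples, which overlapped, and a difference of 0.99 (SE 0.15). AT1G65090 stood at 0.89 (SE 0.13), AT1G64510 at 0.72 (SE 0.10) and CML30 at 0.60 (SE 0.10). With deposited values the differences of these 5 genes were between 0.14 and 0.76, where AT4G17070 stood at 1.92. They were selected for sharing the gap between groups, so these differences are a description.

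By deviations from the group means, which leave out that gap, the most similar probes were those of AT4G39760 (0.939), AT2G04790 (0.915), AT1G33250 (0.914), AT5G39410 (0.909) and PSBW (0.899). These probes vary with the sets of samples much as AT4G17070 does. Their quantile normalized differences were -0.44 for AT4G39760, 0.02 for AT2G04790, 0.19 for AT1G33250, 0.27 for AT5G39410 and 0.19 for PSBW. Deposited PSBW values ran from 16.9 to 25.1 in control and from 30.6 to 44.7 in high iron samples. The 12 arrays, the sets and the quantile normalization are common to all these genes, and no likeness of function follows from the correlation.

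The probes listed directly before and after that of AT4G17070 in the deposited table were far dimmer than the AT4G17070 probe. AT1G50390, the 1 of these 4 neighbours with 1 gene, had a mean intensity of 1.19 ± 0.127 in control and 1.12 ± 0.138 in high iron samples (SD, n = 6). The other neighbours had means from 0.376 to 0.619 in control and from 0.262 to 0.809 in high iron samples. Their differences were between -0.59 and 0.62 in deposited values, where AT4G17070 stood at 1.92. After quantile normalization they were between 0.08 and 0.99, where AT4G17070 stood at 1.48, and after median scaling between -0.11 and 1.14, where it stood at 2.44. The sources used here do not say whether neighbouring rows were neighbouring spots.

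On the chromosome AT4G17070 lies between FIP2 (AT4G17060), a FRIGIDA-interacting protein, and AT4G17080 in the gene table of assembly TAIR10.1, which lists 1 transcript and 1 protein for it. None of the 10 nearest genes, 5 on each side, had a probe with 1 gene, so the level of its neighbours was not analysed here. The tissue could be checked only weakly. Of 8 marker genes of green leaves 1 had a probe of its own, LHB1B2 (AT2G34420), an antenna protein of photosystem II with near-identical gene copies that may share its probe, which was bright in both groups (means 2.68 and 3.41 in deposited values) and had a quantile normalized difference of 0.00. Markers of roots (6 genes), seeds (4) and senescent leaves (3) had 0 such probes, and their part in the AT4G17070 values was not tested.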

How the data were processed

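The authors deposited 1 intensity per probe and sample, taken here as linear from its range and skew. The sources used here do not state the scanner, the background correction or the scaling, and neither the unit nor any centring is known. Probe names follow the annotation of the array platform, which may be outdated, and 690 of the 692 with 1 gene were matched to assembly TAIR10.1 by gene number. Groups come from the source names and replicate numbers from the titles in the labels.

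Intensities were quantile normalized, floored at the 5th percentile of positive values (0.106) and converted to log2. The floor understates changes of dim probes. Differences, SEs and adjusted p-values come from limma 3.58.1 (lmFit, eBayes with trend) in R 4.3.3, two-sided, with Benjamini-Hochberg adjustment over all 3439 probes. In this fit each SE is moved toward a trend over all probes. The SE of the ratio to brighter probes comes from its own values alone. The fit was tested on simulated data in which samples varied independently. That simulation does not cover samples that deviate together in sets. The set as a random block used duplicateCorrelation with statmod 1.5.0 (correlation 0.774). Alternatives were other scalings, floors, a filter on dim probes, samples or sets left out and averages of sets. Blocks were the replicate number over samples and the set over averages. The number of arrays limits the precision.

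Same-numbered samples of the groups deviated together (correlations 0.13 to 0.52, all above 0.1), so a pairing by number was used in the fit blocked by replicate number. Samples of a set also deviated together, so these correlations alone do not separate a pairing by number from one by set. The main fit used no pairing. The pairing comes from the data, not from the labels. Inside sets the correlations were 0.56 to 0.82 and between sets of a group -0.70 to -0.25, over probes. No 2 columns were identical.

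The gene, the lists and the tests were chosen with earlier results of these data known. Named were AT4G17070, the measured isomerase genes, the 5 most similar genes by each of 2 correlations, and neighbours in the table and on the chromosome. Genes that the text says were named after their values were seen fall outside that rule.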

Additional observations from a re-analysis of the deposited data

Results flagged for a closer look

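In AT1G64510, a plastid ribosomal protein gene with a pattern like that of AT4G17070, the lowest control value (sample 6, quantile normalized log2 of -2.09) was separated from the next by 0.670 of the range of its group. It was the 1 such value in 38 groups examined, where chance flags about 1 group in 20. The AT4G17070 values held no such sample in either group under any of the 6 scalings. This rule compares a value with the next one, so it can miss samples that are low together, as samples 5 and 6 were.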

How the results depend on the processing

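The AT4G17070 difference of 1.48 was positive under all 28 alternatives, between 1.35 and 2.44. In 6 of them (averages of sets, the blocks by replicate number and by set, the floors and the filter on dim probes) it could not change. The 1.35 was the ratio to brighter probes, which were picked by their control values, and was added after seeing the data. The AT4G17070 difference moved by more than the spread between samples with deposited values (1.92), the array median (2.44), the array mean (1.94) and the 75th percentile (2.25). Over set averages it moved likewise with deposited values (1.92) and the median (2.44). With 1 sample left out in turn it lay between 1.38 and 1.54, and without high iron samples 3 and 4, chosen after seeing the data, at 1.45. With the replicate block it was 1.48 by construction. The count of probes that passed, 1149, was 1892 with deposited values, 1869 with the array mean and 82 over set averages. It was 491 when the set was a random block and 1 with the averages blocked by set. Over averages it was 449 with deposited values and 259 with the median, both added after seeing the data. Higher and lower calls numbered 625 and 524 after quantile normalization, 291 and 1601 with deposited values, 850 and 436 with the median, 311 and 1558 with the mean and 616 and 737 with the 75th percentile. Of the 3 isomerase genes 2 passed. The number was 1 with deposited values, with the array mean, without the dimmest 25 percent of probes (where AT5G55220 was not tested), without samples 3 and 4 or 5 and 6 of both groups, and when the set was a random block. It was 0 in limma over set averages with each of 3 scalings and with the averages blocked by set. In these fits 1 or 2 of the 3 had an unadjusted p under 0.05. AT5G35100 kept its sign and passed in all 12 fits without 1 sample (adjusted p from 0.00118 to 0.00574). The cause of these differences was not tested. The units being unnamed, a ratio holds only if the scale is linear.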
